A study of Mus musculus with 46 samples.

Results

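Ass1, Asl, Arg1, Arg2, Nos2, Gatm, Oat, Ddah1 and Odc1 are 9 mouse genes whose enzymes make arginine, break it down or use it to build creatine and polyamines. They were chosen by name, as the rows of the FPKM table that carry these symbols, and are 9 of its 53465 genes. All 9 were found. The table holds FPKM (fragments counted for a gene, scaled by transcript length and by the library's mapped fragments) of RNA from cells sorted from the kidneys of wild-type (WT) mice, which were male C57BL/6 animals of 8 to 12 weeks. Kidneys came from mice after sham surgery, after unilateral ureteric obstruction (UUO, in which the ureter of 1 kidney is closed) or after reversal of the obstruction by reimplanting the ureter (rUUO, 14 days after reversal), and every mouse carried the same genotype and received no drug. The labels do not say which UUO mice were culled at 2 days and which at 7 days. From each surgery 4 populations were sorted by a surface label: proximal tubular cells (PT, LTL+), macrophages (F4/80+), endothelial cells (CD31+) and stromal cells (PDGFRB+). The values used came from 3 sham, 4 UUO and 3 rUUO samples of PT cells, from 4, 4 and 3 samples of macrophages, from 4, 3 and 4 samples of endothelial cells, and from 4 samples of each surgery in stromal cells. In sorted bulk RNA, fewer cells of a kind and less RNA per cell cannot be told apart.

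The kidney is the main source of arginine for the rest of the body. Citrulline released by the gut is taken up by the proximal tubule, where argininosuccinate synthase (Ass1) joins it to aspartate and argininosuccinate lyase (Asl) splits the product into arginine and fumarate. Arginine is then cut to ornithine and urea by the arginases (cytosolic Arg1 and mitochondrial Arg2), oxidised to nitric oxide by nitric oxide synthases (Nos2 is the inducible form), or joined to glycine by glycine amidinotransferase (Gatm), which gives the precursor of creatine. Ornithine goes on to proline and glutamate through ornithine aminotransferase (Oat) or to putrescine, the first polyamine, through ornithine decarboxylase (Odc1). Ddah1 breaks down methylated arginines that inhibit nitric oxide synthases.

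Summed over genes, the FPKM of the 44 samples lay between 586929 and 884982. The table gives no counts, so depth is unknown in absolute terms. Relative depth, read from the spacing of low values and set to 1 at the median sample, ranged from 0.632 to 1.58. The 37 mitochondrial genes took 58.7 to 75.6% of the FPKM in PT samples and 20.2 to 45.8% in the samples of the other populations. Each population held its own markers. The summed FPKM of 5 proximal tubule markers (Lrp2, Cubn, Slc34a1, Slc5a2 and Slc22a6) lay between 1669 and 2272 in the PT samples of sham kidneys, between 456 and 614 after UUO and between 1019 and 1313 after reversal. In PT UUO against sham all 5 of these markers fell (log2 change from -2.57 to -1.12). Over the same samples the sum of the thick ascending limb markers Umod and Slc12a1 lay between 17.4 and 22.1 FPKM in sham, between 140.1 and 176 FPKM after UUO and between 44.8 and 135 FPKM after reversal. The collecting duct markers Aqp2 and Fxyd4 summed to 7.26 to 12.3 FPKM, 14.4 to 48.4 FPKM and 13.4 to 28.6 FPKM in the same order, and 5 stromal markers to 12.4 to 15.0 FPKM, 20.9 to 36.6 FPKM and 27.1 to 30.5 FPKM. Umod, Fxyd4, Rgs5 and Dcn of these lists rose in PT UUO against sham (log2 changes of 3.01, 1.22, 1.78 and 0.89). Outside PT cells the 5 proximal tubule markers summed to 79.5 to 97.2 FPKM in sham macrophages, 31.7 to 121 FPKM in sham endothelial cells and 28.7 to 44.7 FPKM in sham stromal cells, with none of the 5 at 0, so that proximal tubule transcripts were present in every population. The part of these markers in the results below was not tested. Where a member's level is set beside theirs, the percents are ratios of group means and a description.

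The promoters of Ass1, Gatm and Odc1 are shown because these are the members with the highest levels in PT cells and all 3 fell there after UUO. Each runs from 250 bases before to 50 bases after the transcription start in RefSeq, on build GRCm38.p6, 5′ to 3′ along the gene's strand. Capitals mark matches on either strand to 5 motifs. These were the E-box with the letters CACGTG, the core promoter motif with the letters TATAAA, the Sp1-type motif with the letters GGGCGG, the NF-Y-type motif with the letters CCAAT and the HNF1 half-site with the letters GTTAAT.
Ass1, chr2:31470020-31470319, plus strand: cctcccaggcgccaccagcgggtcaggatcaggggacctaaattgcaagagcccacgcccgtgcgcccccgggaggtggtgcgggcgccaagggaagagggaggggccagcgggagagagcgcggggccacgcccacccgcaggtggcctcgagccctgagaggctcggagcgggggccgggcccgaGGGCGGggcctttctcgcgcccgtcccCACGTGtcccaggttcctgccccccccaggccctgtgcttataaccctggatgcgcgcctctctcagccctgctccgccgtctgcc
Gatm, chr2:122611228-122611527, minus strand: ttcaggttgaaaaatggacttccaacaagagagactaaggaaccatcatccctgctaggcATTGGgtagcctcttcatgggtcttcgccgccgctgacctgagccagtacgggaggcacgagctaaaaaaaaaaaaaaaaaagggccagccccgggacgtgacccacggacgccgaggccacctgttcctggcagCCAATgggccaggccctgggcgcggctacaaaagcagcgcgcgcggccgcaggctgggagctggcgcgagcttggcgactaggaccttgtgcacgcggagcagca
Odc1, chr12:17544623-17544922, plus strand: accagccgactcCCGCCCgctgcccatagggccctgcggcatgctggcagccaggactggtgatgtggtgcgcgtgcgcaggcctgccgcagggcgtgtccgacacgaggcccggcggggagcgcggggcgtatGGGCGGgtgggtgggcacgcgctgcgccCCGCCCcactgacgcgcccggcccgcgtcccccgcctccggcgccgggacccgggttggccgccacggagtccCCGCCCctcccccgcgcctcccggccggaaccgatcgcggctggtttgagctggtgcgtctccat
Among 32851 RefSeq promoters of the same length, 7.15% held CACGTG, 13.6% TATAAA, 35.7% GGGCGG, 37.4% CCAAT and 7.10% GTTAAT on either strand. The Ass1 window held 1 match to CACGTG and 1 to GGGCGG, the Gatm window 2 to CCAAT, and the Odc1 window 4 to GGGCGG. No motif of the 5 occurred in all 3 windows. Promoters of 5 of the 9 members were in the RefSeq table, the other 2 being Oat and Ddah1. Oat held 2 matches to CCAAT and 2 to GGGCGG, and Ddah1 held no match. A match is a description of the letters and not of a bound site. Asl, Arg1, Arg2 and Nos2 are named only. Within the table of values the Ass1 gene (ENSMUSG00000076441.9) spans chr2:31470207-31520672 on the plus strand, Gatm (ENSMUSG00000027199.14) spans chr2:122594467-122611303 on the minus strand and Odc1 (ENSMUSG00000011179.8) spans chr12:17544794-17551505 on the plus strand of GRCm38.

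**Figure D1:**
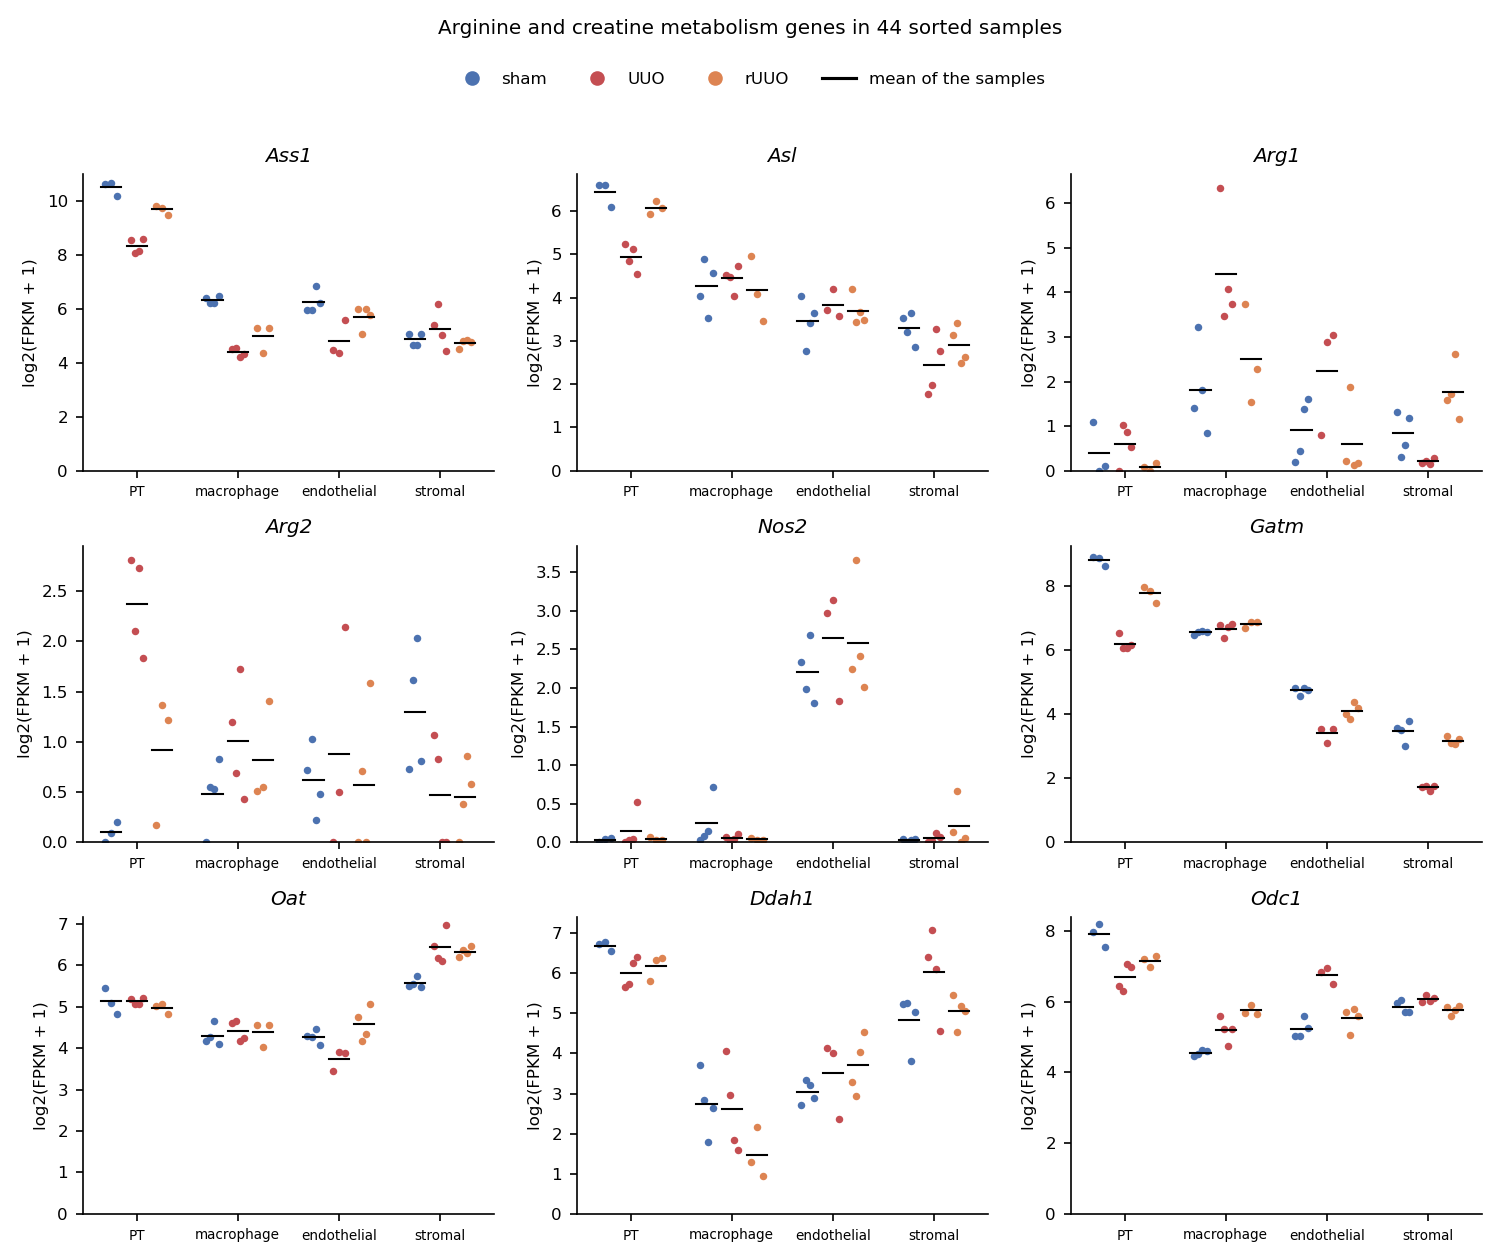
FPKM of the 9 genes in each of the 44 sorted samples, as log2(FPKM + 1) on the y axis, by population on the x axis and by surgery in colour, with a black line at the mean of each group. Ass1, Asl, Gatm and Odc1 are highest in PT sham and lower in every PT UUO sample, Arg2 is highest in PT UUO, and Nos2 is above 1 FPKM in endothelial cells alone.

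In sham kidneys the genes that make arginine and the creatine precursor were at their highest in PT cells. Ass1 had 1599, 1626 and 1168 FPKM in the 3 PT samples against 73.6 to 88.5 FPKM in macrophages, 61.2 to 114 FPKM in endothelial cells and 24.2 to 32.6 FPKM in stromal cells. Its order was PT first, then macrophages and endothelial cells, whose levels overlapped (log2 difference 0.09, SE 0.20, limma adjusted p = 0.73), and then stromal cells. Gatm followed PT (475, 470.4 and 399 FPKM), macrophages (88.8 to 96.5 FPKM), endothelial cells (22.8 to 27.5 FPKM) and stromal cells (7.11 to 12.7 FPKM), with no overlap between any of the 4 populations. Asl had 96.0, 97.0 and 67.1 FPKM in PT cells and 5.83 to 28.8 FPKM over the samples of the other 3 populations, whose ranges overlapped. Odc1 was also highest in PT cells (252, 292 and 186 FPKM), followed by stromal cells (50.8 to 64.6 FPKM), endothelial cells (31.5 to 47.7 FPKM) and macrophages (21.1 to 23.9 FPKM).

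The remaining members had other orders in sham. Ddah1 was high in PT cells (105, 109 and 93.3 FPKM), lower in stromal cells (12.9 to 37.5 FPKM), and lowest in endothelial cells (5.55 to 9.16 FPKM) and macrophages (2.44 to 12.01 FPKM), which overlapped. Oat was highest in stromal cells (43.8 to 52.1 FPKM) and next in PT cells (43.0, 33.0 and 27.5 FPKM), and the difference between these neighbours did not pass the threshold (log2 difference of PT minus stromal -0.44, limma adjusted p = 0.057). Macrophages (16.2 to 24.0 FPKM) and endothelial cells (15.7 to 20.95 FPKM) were below both and overlapped each other for Oat. Nos2 was seen in endothelial cells (4.06, 2.98, 5.45 and 2.49 FPKM) and had at most 0.65 FPKM in any sham sample of the other populations. Arg1 had 1.65, 8.33, 2.49 and 0.81 FPKM in macrophages and at most 2.03 FPKM elsewhere in sham. Arg2 had at most 3.08 FPKM in any sham sample, that sample being stromal, and did not reach the mean of 1 FPKM over sham samples that the test required. By limma on log2(FPKM + 1), 7 of the 8 tested members differed between PT cells and macrophages, where 64.9% of 14204 genes did, 7 between PT and endothelial cells (62.3% of genes), 5 between PT and stromal cells (67.6%), 4 between macrophages and endothelial cells (45.7%), 6 between macrophages and stromal cells (48.1%) and 6 between endothelial and stromal cells (24.2%). Arg1 reached the level tested in sham only through macrophages and Nos2 only through endothelial cells. Without these members the calls were 6 of 6, 6 of 6, 5 of 6, 3 of 6, 6 of 6 and 5 of 6 in the same order of pairs. The median log2 difference of all genes, PT minus the other population, was -0.90, -0.93 and -1.06, and the members' medians were 2.21, 2.82 and 1.95. The medians of all genes moved with the scaling. They were 0.04, 0.01 and 0.02 with quantile normalization and -0.09, -0.42 and -0.62 after rescaling without mitochondrial genes. The members' medians under these settings are not given. Arg1 between PT cells and macrophages lost its call without PT sham replicate 2 or 4 (adjusted p of 0.072 and 0.079). Asl lost its calls between macrophages and endothelial cells without 10 of 15 single samples (adjusted p from 0.050 to 0.15) and between macrophages and stromal cells without macrophage replicate 2 or stromal replicate 4 (0.056 and 0.065). Odc1 between endothelial and stromal cells lost its call without endothelial replicate 1 or stromal replicate 2 (both 0.052). Under other settings Arg1 between PT cells and macrophages lost its call in 3 (0.055 to 0.17). Asl lost its call in 5 between macrophages and endothelial cells (0.055 to 0.20) and in 1 between macrophages and stromal cells (0.13).

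After UUO, PT cells had less RNA of both enzymes of arginine synthesis (Ass1 and Asl), of Gatm and of Odc1, and more Arg2. Of the 7 members tested in PT cells 6 passed the threshold in UUO against sham, 5 lower and 1 higher, where 32.8% of 11416 genes passed and most of those were higher (3186 against 561 lower). The 1 higher was Arg2, which was tested only through its UUO samples, and the other 6 members give 5 calls. The median change of the 7 members, Arg2 included, was a log2 value of -1.22 and that of all genes tested 0.51. Both the median and the counts of all genes moved with the scaling. With quantile normalization 1218 genes were higher and 1217 lower (median -0.04), and after rescaling without mitochondrial genes 1957 and 877 (median 0.27). Mitochondrial genes took 68.9 to 75.6% of the FPKM in PT sham and 58.7 to 66.4% in PT UUO. Gatm, Ass1, Asl and Odc1 kept their calls under every alternative. In the same samples all 5 proximal tubule markers fell too, with log2 changes from -2.57 to -1.12. Whether the members changed apart from these markers was not tested. Arg1 and Nos2, at or under 1.13 FPKM in every PT sample, were not tested in PT cells.

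Gatm had the largest fall. It went from 475, 470.4 and 399 FPKM in sham to 91.5, 66.3, 65.8 and 70.8 FPKM in UUO, so that every UUO sample was below every sham sample (log2 change -2.60, SE 0.18, limma adjusted p = 1.9e-07). Ass1 went from the 3 sham values given above to 371, 271, 285 and 380.3 FPKM in UUO (log2 change -2.16, SE 0.18, limma adjusted p = 8.2e-07). Asl, the next enzyme after Ass1, went to 36.6, 27.7, 34.0 and 22.3 FPKM (log2 change -1.50, SE 0.22, limma adjusted p = 0.00016). Neither overlapped between sham and UUO. Odc1 had 85.9, 77.2, 132 and 124 FPKM in UUO, again below all 3 sham samples (log2 change -1.22, SE 0.22, limma adjusted p = 0.0011). Ddah1 had 49.6, 52.4, 75.0 and 83.3 FPKM in UUO against 93.3 FPKM in its lowest sham sample, a smaller fall (log2 change -0.68, SE 0.22, limma adjusted p = 0.032). The Ddah1 call was lost without PT sham replicate 1, 2 or 4 or without PT UUO replicate 1 or 2 (adjusted p from 0.052 to 0.088, log2 change from -0.74 to -0.56), and under 4 other settings (adjusted p from 0.052 to 0.38). Oat, which takes ornithine towards proline, had 43.0, 33.0 and 27.5 FPKM in sham and 35.3, 32.7, 32.4 and 36.2 FPKM in UUO (log2 change 0.01, 95% interval from -0.42 to 0.44). PT UUO replicate 2 carries both SHAM and UUO in its title and was grouped by its treatment label, and its values (271 FPKM of Ass1 and 66.3 FPKM of Gatm) lay with those of the other UUO samples.

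Arg2 rose in PT cells from 0, 0.07 and 0.15 FPKM in sham to 6.01, 3.29, 5.62 and 2.57 FPKM in UUO (log2 change 2.27, SE 0.37, limma adjusted p = 0.00041). It reached the level that the test required only through the UUO samples, so that a tested Arg2 had to differ, and the other 6 members give 5 calls. The part of the thick ascending limb, collecting duct and stromal markers, which were also higher in these samples, was not tested. The log2 ratio of Gatm to Ass1 within a sample, taken on FPKM + 1, was -1.69 ± 0.13 (SD, n = 3) in sham and -2.13 ± 0.19 (SD, n = 4) in UUO. The difference of -0.44 had p = 0.029 in an exact two-sided permutation test, the smallest p that 3 against 4 samples allow, and 0.064 after Benjamini-Hochberg adjustment over the 9 ratio comparisons made. Ratios of Arg2 to Ass1 in PT cells and of Arg1 to Nos2 in macrophages were among the 9 and are not given, because Arg2 in sham and Nos2 in all macrophage samples lay under 1 FPKM and the added 1 then sets the ratio.

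After reversal of the obstruction, Gatm, Ass1 and Asl were higher in PT cells than in UUO, and Gatm and Ass1 remained below sham. In rUUO against UUO 4 of 7 members passed, or 3 of 6 without Arg2, which was tested through its UUO samples, where 3.83% of genes did, and in rUUO against sham 2 of 7 passed, where 7.46% did. The 5 proximal tubule markers had log2 changes from 0.23 to 1.64 against UUO and from -0.92 to -0.53 against sham. Whether the members changed apart from these markers was not tested. Gatm had 253, 231 and 176 FPKM in rUUO, above every UUO sample (log2 change 1.56, SE 0.18, limma adjusted p = 0.00092) and below every sham sample (log2 change -1.04, SE 0.20, limma adjusted p = 0.0042). Ass1 had 909, 857 and 719 FPKM, between the 2 other groups with no overlap with either (log2 change 1.35 against UUO and -0.81 against sham, limma adjusted p of 0.0017 and 0.020). Asl had 59.8, 73.9 and 66.8 FPKM (log2 change 1.14 against UUO, SE 0.22, limma adjusted p = 0.014), and its difference from sham was -0.36 (95% interval from -0.86 to 0.14). Arg2 had 0.13, 1.57 and 1.32 FPKM, below all UUO samples (log2 change -1.45, SE 0.37, limma adjusted p = 0.045). Odc1 (146, 125 and 156 FPKM) overlapped UUO and lay below sham (log2 change -0.75, limma adjusted p = 0.075), and Ddah1 (55.1, 79.0 and 83.0 FPKM) and Oat (31.3, 32.6 and 27.1 FPKM) passed in neither comparison.

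The Arg2 call in rUUO against UUO was lost without 8 of the 10 single PT samples, namely sham replicates 1 and 4, UUO replicates 1, 2 and 3 and rUUO replicates 2, 3 and 4 (adjusted p from 0.061 to 0.15), and under 6 of the other settings (adjusted p from 0.051 to 0.14). The Asl call was lost without rUUO replicate 3 (adjusted p = 0.065, log2 change 1.07) and in 1 fit on all populations (adjusted p = 0.056). The Ass1 call in rUUO against sham was lost without sham replicate 1 or 2 or rUUO replicate 4 (adjusted p of 0.082 to 0.084, log2 change from -0.74 to -0.71). It was also lost under 5 other settings, the replicate block among them (adjusted p from 0.081 to 0.14). The 3 surgeries of a population share their sham or UUO samples, so the comparisons are not independent of each other.

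**Figure D2:**
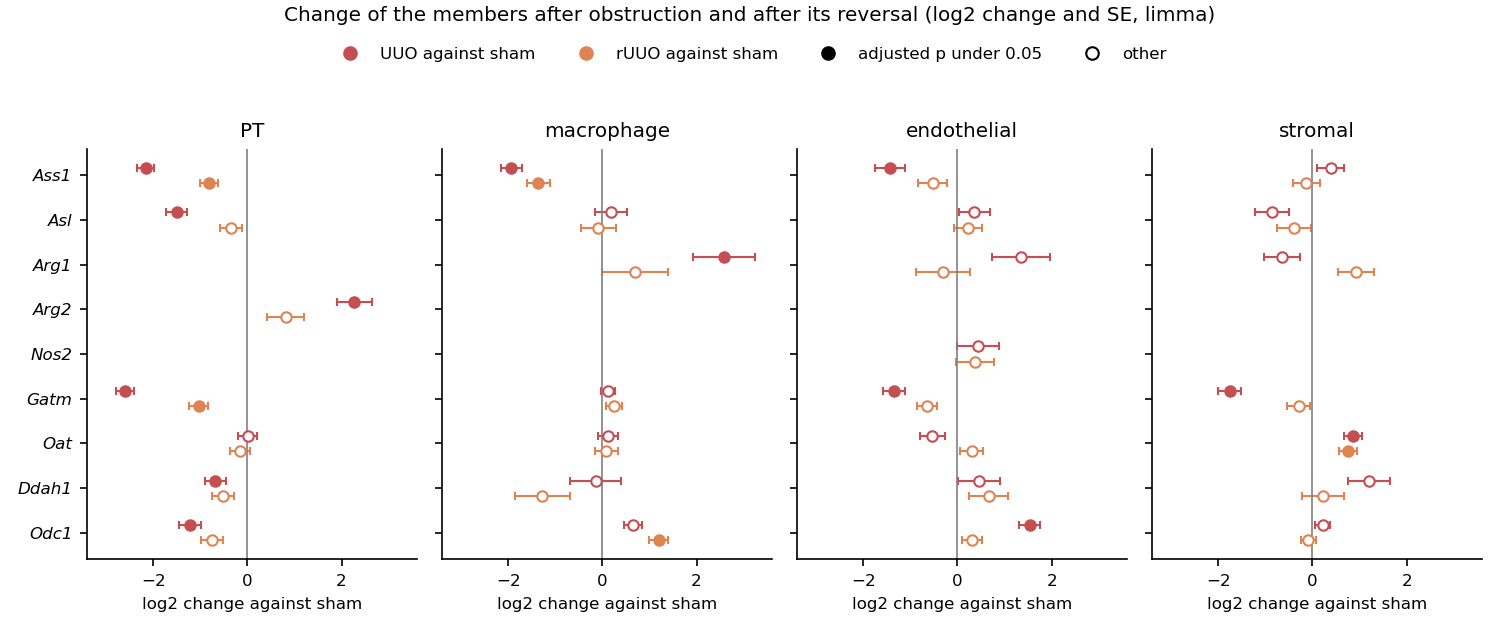
Log2 change of each member against sham on the x axis, with its standard error, after UUO (red) and after rUUO (orange) in the 4 populations, where filled points have an adjusted p under 0.05 in limma and members under the level tested have no point. In PT cells 5 members lie left of 0 after UUO, and Gatm and Ass1 are filled on the left after rUUO too, whereas in endothelial cells Odc1 lies to the right after UUO.

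In macrophages Arg1 rose after UUO and Ass1 fell. Of 7 members tested 2 passed in UUO against sham (4.99% of 13332 genes did), none in rUUO against UUO (0% of genes did) and 2 in rUUO against sham (3.44% did). By limma 945 genes and 3 of the 7 members had an unadjusted p under 0.05 in rUUO against UUO. Arg1, the arginase that marks alternatively activated macrophages, went from 1.65, 8.33, 2.49 and 0.81 FPKM in sham to 79.8, 10.1, 15.8 and 12.4 FPKM in UUO, with UUO replicate 1 far above the other samples and no overlap between the groups (log2 change 2.58, SE 0.65, limma adjusted p = 0.038). In rUUO it had 12.3, 1.92 and 3.83 FPKM and overlapped both groups. The Arg1 call was lost without any one of sham replicates 1, 3 and 4, UUO replicates 1 and 3 and rUUO replicate 6 (adjusted p from 0.053 to 0.10, log2 change from 1.94 to 2.69), and with the replicate number as a block, without the filter or without the intensity trend (adjusted p from 0.055 to 0.15). Nos2, the arginine user that marks classical activation, had at most 0.65 FPKM in any macrophage sample, and that sample was sham. Beside the Arg1 rise, the summed FPKM of the neutrophil markers S100a8, S100a9 and Retnlg was 3.15 to 8.10 in sham macrophages, 10.7 to 90.2 in UUO and 5.56 to 23.0 in rUUO, and the part of these cells in the Arg1 level was not tested. The summed B cell markers Cd79a and Ms4a1 went from 1.25 to 2.08 FPKM in sham to 2.18 to 31.1 FPKM in UUO, and the summed T cell markers Cd3e and Cd3g from at most 0.72 FPKM in sham to 1.19 to 22.2 FPKM in UUO and 3.94 to 19.5 FPKM in rUUO.

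Ass1 in macrophages had 83.4, 73.6, 74.1 and 88.5 FPKM in sham, 21.7, 22.5, 17.8 and 18.8 FPKM in UUO and 38.1, 19.4 and 38.3 FPKM in rUUO (log2 change -1.93 in UUO and -1.36 in rUUO against sham, limma adjusted p of 0.00016 and 0.0056). The proximal tubule markers moved the same way in these samples, their sum being 79.5 to 97.2 FPKM in sham, 11.8 to 24.3 FPKM in UUO and 12.4 to 14.7 FPKM in rUUO. Ass1 in macrophages stood at 5.46% of its PT level in sham, where the 5 proximal tubule markers stood at 3.31 to 5.37%. It stood at 6.19% in UUO and 3.85% in rUUO, above the 1.65 to 3.56% and 0.531 to 1.45% of the markers. Gatm had 88.8 to 96.5 FPKM in sham, 82.1 to 111 FPKM in UUO and 102 to 117 FPKM in rUUO macrophages, which is 20.8% of the PT level in sham and 139% in UUO, above the markers in both. Odc1 rose in macrophages in rUUO against sham. It had 21.1, 22.1, 23.9 and 23.3 FPKM in sham, 47.7, 36.5, 26.0 and 36.8 FPKM in UUO (log2 change 0.65, limma adjusted p = 0.074, with no overlap) and 50.7, 58.7 and 49.7 FPKM in rUUO (log2 change 1.19, SE 0.21, limma adjusted p = 0.0061). With the replicate number as a block the rUUO value had an adjusted p of 0.13. Asl (10.03 to 30.4 FPKM over the 11 macrophage samples), Oat (15.3 to 24.1 FPKM) and Ddah1 (0.93 to 15.7 FPKM) passed in none of the 3 comparisons.

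In endothelial cells Odc1 rose after UUO while Gatm and Ass1 fell. Of 8 members tested 3 passed in UUO against sham (1.98% of 13393 genes did), none in rUUO against UUO (0.0597% did) and none in rUUO against sham (1.77% did). In those last 2 comparisons 5 and 1 of the 8 members, and 1369 and 1895 genes, had an unadjusted p under 0.05 in limma, and the fit of all populations together called 3 and 1 members. Arg1, 1 of those 5, reached the level tested in endothelial cells only through its UUO samples. Odc1 went from 31.5, 32.0, 47.7 and 37.0 FPKM in sham to 114, 122 and 89.4 FPKM in UUO, every UUO sample above every sham sample (log2 change 1.53, SE 0.23, limma adjusted p = 0.0017). In rUUO it had 51.0, 32.4, 54.5 and 47.7 FPKM, below every UUO sample (log2 change -1.22, limma adjusted p = 0.081) and overlapping sham. Gatm had 27.4, 22.8, 27.5 and 26.1 FPKM in sham, 10.7, 7.63 and 10.6 FPKM in UUO and 15.0, 13.5, 19.8 and 17.2 FPKM in rUUO (UUO against sham log2 change -1.35, SE 0.23, limma adjusted p = 0.0056, or 0.055 with the replicate number as a block). Ass1 had 61.3, 61.2, 114 and 72.6 FPKM in sham and 21.1, 19.5 and 47.5 FPKM in UUO (log2 change -1.43, SE 0.32, limma adjusted p = 0.032), and 63.2, 32.8, 61.9 and 54.3 FPKM in rUUO. The Ass1 call was lost without sham replicate 3 or 4 or UUO replicate 1 or 2 (adjusted p from 0.064 to 0.12, log2 change from -1.44 to -1.21), and also with the replicate block, without the filter or without the intensity trend (0.094 to 0.16).

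The proximal tubule markers in endothelial samples summed to 31.7 to 121 FPKM in sham, 13.1 to 38.2 FPKM in UUO and 12.1 to 45.2 FPKM in rUUO, and sham replicate 3, the highest for Ass1, was also the one with the highest thick ascending limb sum (632 FPKM). Ass1 stood at 5.27% and Gatm at 5.79% of the PT level in sham, where the markers stood at 2.64 to 4.64%. In UUO they stood at 8.99% and 13.1% against 2.04 to 6.17%, and in rUUO at 6.41% and 7.45% against 2.24 to 4.59%, above the markers in all 3 surgeries. Odc1 stood at 15.2% of PT in sham and 104% in UUO, again above the markers. Nos2 was above 2.4 FPKM in all 11 endothelial samples, with 4.06, 2.98, 5.45 and 2.49 FPKM in sham, 6.82, 7.81 and 2.55 FPKM in UUO and 3.73, 11.6, 4.31 and 3.03 FPKM in rUUO, and the surgeries overlapped (UUO against sham log2 change 0.44, 95% interval from -0.50 to 1.38). Asl, Oat and Ddah1 passed in no comparison, and Arg1 had 0.74, 6.46 and 7.24 FPKM in UUO against 0.14 to 2.03 FPKM in sham (log2 change 1.34, limma adjusted p = 0.36). Arg1 was tested here only through its UUO samples, so its change is given as a description.

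In stromal cells the members that moved were Oat, which rose, and Gatm, which fell after UUO and was higher again in rUUO. Of 7 members tested 2 passed in UUO against sham (26.4% of 14033 genes did), 2 in rUUO against UUO (4.17% did), 1 of them Arg1, which was tested through its rUUO samples, and 1 in rUUO against sham (17.2% did). In both comparisons with sham the count lay near the share over all genes, so the members did not stand out by number. Oat went from 43.9, 46.0, 52.1 and 43.8 FPKM in sham to 87.6, 71.7, 67.6 and 125 FPKM in UUO (log2 change 0.87, SE 0.19, limma adjusted p = 0.0029) and had 72.2, 81.4, 77.2 and 86.8 FPKM in rUUO (log2 change 0.76 against sham, SE 0.19, limma adjusted p = 0.010), so that all 8 samples after surgery were above all 4 sham samples. The rUUO call was lost with the replicate block, with quantile normalization and with FPKM rescaled without the mitochondrial genes (adjusted p from 0.058 to 0.089). Gatm had 10.8, 10.4, 7.11 and 12.7 FPKM in sham, 2.31, 2.41, 2.06 and 2.35 FPKM in UUO (log2 change -1.76, SE 0.25, limma adjusted p = 8.45e-05) and 9.07, 7.50, 7.33 and 8.39 FPKM in rUUO (log2 change 1.46 against UUO, SE 0.25, limma adjusted p = 0.0054, or 0.066 with the replicate block). The proximal tubule markers in these samples summed to 28.7 to 44.7 FPKM in sham, 5.37 to 9.10 FPKM in UUO and 6.87 to 14.7 FPKM in rUUO, and Gatm stood at 2.29% of PT in sham, within the 1.32 to 3.58% of the markers. It stood at 3.10% in UUO and 3.67% in rUUO, above the 0.983 to 1.78% and 0.628 to 2.94% of the markers.

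Ass1 passed in none of the 3 comparisons in stromal cells. It had 32.6, 24.6, 24.2 and 32.4 FPKM in sham and 41.8, 70.7, 31.3 and 20.8 FPKM in UUO (log2 change 0.39, 95% interval from -0.22 to 1.00), and stood at 12.6% of its PT level in UUO, when the proximal tubule markers stood at 0.983 to 1.78%. Ddah1 had 84.0, 135, 68.4 and 22.4 FPKM in UUO against 36.7, 37.5, 12.9 and 32.0 FPKM in sham, with overlap (log2 change 1.20, SE 0.44, limma adjusted p = 0.057). Arg1 had 0.11 to 0.22 FPKM in UUO and 1.23 to 5.18 FPKM in rUUO (log2 change 1.56, SE 0.39, limma adjusted p = 0.037), but it passed the filter in stromal cells through rUUO, and the call was lost without UUO replicate 1, 2 or 4 or rUUO replicate 1 or 2 (adjusted p from 0.062 to 0.078), and under 4 other settings (0.069 to 0.12). Odc1 stayed between 47.2 and 71.4 FPKM in all 12 stromal samples (UUO against sham log2 change 0.21, 95% interval from -0.12 to 0.54), and Asl had 6.23 to 11.5 FPKM in sham and 2.40 to 8.70 FPKM in UUO (log2 change -0.86, limma adjusted p = 0.090).

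Whether a member changed differently in PT cells than in another population was tested directly, as the PT change minus the other population's change in 1 fit of all 44 samples. In UUO against sham 5 of the 9 members passed against macrophages (15.5% of 14332 genes did), 4 against endothelial cells (11.1% did) and 6 against stromal cells (29.2% did). Odc1 and Gatm passed in all 3 with the same sign. For Odc1 the log2 differences were -1.87 against macrophages, -2.75 against endothelial cells and -1.43 against stromal cells (limma adjusted p of 2.5e-06, 2.0e-09 and 6.8e-05), and Odc1 fell in PT cells and rose in endothelial cells. For Gatm the log2 differences were -2.72 against macrophages, -1.25 against endothelial cells and -0.84 against stromal cells (limma adjusted p of 3.8e-11, 0.00029 and 0.0051), and the last of these was lost with a pseudocount of 0.1 (0.10). Asl differed between PT cells and both macrophages and endothelial cells (differences of -1.68 and -1.86, limma adjusted p of 0.011 and 0.0082). Ass1 differed from stromal cells alone (-2.56, limma adjusted p = 3.1e-06). For Ass1 the difference from macrophages was -0.23 (95% interval from -1.03 to 0.57) and from endothelial cells -0.73 (95% interval from -1.56 to 0.10).

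For Arg2 the differences were 1.74, 2.01 and 3.09 against macrophages, endothelial and stromal cells (limma adjusted p of 0.038, 0.024 and 7.9e-05), but Arg2 reached the level tested over the 44 samples only through the PT UUO samples, so that these calls, which the counts above include, are given as a description. The difference from macrophages was lost without 8 single samples, namely PT sham replicates 1, 2 and 4, macrophage sham replicates 2, 3 and 4 and macrophage UUO replicates 2 and 4 (adjusted p from 0.055 to 0.079), and that from endothelial cells without PT sham replicate 1, endothelial sham replicate 2 or endothelial UUO replicate 1 or 2 (0.051 to 0.11). Under other settings the first was lost in 3 (0.066 to 0.11) and the second in 1 (0.052). Arg1 differed between PT cells and macrophages (-2.37, limma adjusted p = 0.037), Oat between PT and stromal cells (-0.86, limma adjusted p = 0.018) and Ddah1 between PT and stromal cells (-1.88, limma adjusted p = 0.038). Arg1 was at most 1.13 FPKM in any PT sample, so its difference, which the counts above include, mostly repeats the macrophage change. The Arg1 call was lost without PT sham replicate 1 or 4, PT UUO replicate 1 or 4, macrophage sham replicate 1, 3 or 4 or macrophage UUO replicate 1 (0.052 to 0.12), the Oat call without PT sham replicate 1 or stromal UUO replicate 4 (0.059 and 0.081) and the Ddah1 call without PT sham replicate 1, 2 or 4, PT UUO replicate 1 or 2, stromal sham replicate 3 or stromal UUO replicate 1, 2 or 3 (0.052 to 0.10). Under other settings the Arg1 call was lost in 4 (0.054 to 0.27) and the Ddah1 call in 2 (0.059 to 0.085). In rUUO against UUO, 1 member passed against macrophages (Gatm, where 0.781% of genes passed), 2 against endothelial cells (Odc1 and Gatm, 2.09%) and 1 against stromal cells (Ass1, 7.43%). Gatm rose more in PT cells than in macrophages by 1.43 (limma adjusted p = 0.0016), and its difference of 0.86 from endothelial cells (limma adjusted p = 0.049) was lost without 33 of the 44 single samples (adjusted p up to 0.12) and under 3 other settings (0.072 to 0.085). Odc1 differed from endothelial cells by 1.69 (limma adjusted p = 0.0012) and Ass1 from stromal cells by 1.87 (limma adjusted p = 0.0029).

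**Figure D3:**
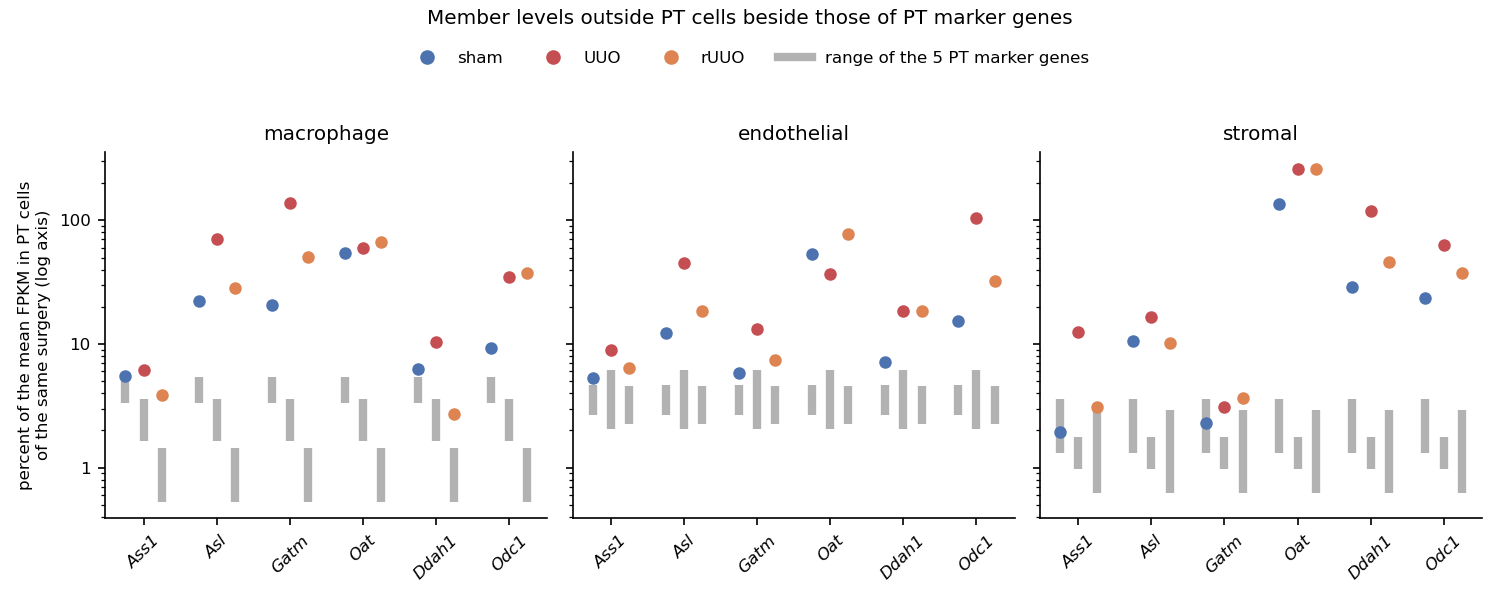
Mean FPKM of 6 members in macrophages, endothelial cells and stromal cells as a percent of their mean in PT cells of the same surgery, on a log axis, with grey bars for the range of the 5 proximal tubule markers. Ass1 in sham lies at 5.46, 5.27 and 1.94% in macrophages, endothelial and stromal cells. Oat and Odc1 lie above Ass1 in every group, and Gatm lies above Ass1 in every group except stromal UUO.

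Of 39 other genes of arginine, creatine, polyamine and proline metabolism, in 6 groups, 28 were high enough to be tested in PT cells. In UUO against sham 7 of these rose and 11 fell, where 32.8% of all genes passed. In rUUO against UUO 2 rose and 2 fell (3.83% of all genes passed), and in rUUO against sham 3 rose and 1 fell (7.46% passed). The median change of the 28 after UUO was a log2 value of 0.04, next to 0.51 over all genes tested. The latter moved with the scaling, as given above. In the creatine group all 4 tested genes moved after UUO, 2 in each direction. Gamt, which methylates the product of Gatm to creatine, fell with it (log2 change -1.43, SE 0.38, limma adjusted p = 0.011), as did the creatine transporter Slc6a8 (-0.92, SE 0.19, limma adjusted p = 0.0025). Ckmt1, the mitochondrial creatine kinase, rose from 7.44, 1.73 and 3.59 FPKM in sham to 176, 155, 115 and 130 FPKM in UUO and stayed at 75.5, 85.3 and 78.8 FPKM in rUUO (log2 change 4.92 in UUO and 4.09 in rUUO against sham, limma adjusted p of 4.6e-08 and 2.3e-06). Ckb, the cytosolic brain-type kinase, rose by 1.15 (limma adjusted p = 0.024). The Ckmt1 rise stood beside the rise of the thick ascending limb markers in the same samples, and in stromal cells Ckmt1 fell (-2.76, limma adjusted p = 0.00014) where the thick ascending limb sum went from 236 to 309 FPKM in sham to 28.0 to 53.9 FPKM in UUO. Whether those cells carry the Ckmt1 signal was not tested.

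In the nitric oxide and methylarginine group 4 of 6 genes were tested in PT cells. Ddah2, the relative of Ddah1, rose from 1.99, 1.13 and 1.65 FPKM in sham to 27.4, 21.1, 31.3 and 17.4 FPKM in UUO and had 11.4, 15.2 and 9.05 FPKM in rUUO (log2 change 3.27 and 2.30 against sham, limma adjusted p of 7.6e-07 and 0.00014). The 2 Ddah genes thus had opposite signs after UUO, but the smaller Ddah1 fall lost its call under 9 of 18 alternatives. Agxt2, which clears methylarginines by transamination, fell (-1.83, SE 0.24, limma adjusted p = 5.4e-05). Among 4 tested ornithine and proline genes Prodh (-1.42), Prodh2 (-1.19) and Aldh4a1 (-1.53) fell, and Aldh18a1 of proline synthesis rose (1.65), all with a limma adjusted p of at most 0.0082. Among 6 cationic amino acid transport genes Slc7a7 (-1.53) and its partner chain Slc3a2 (-1.30), which release arginine at the basolateral side, and the apical Slc7a9 (-0.98) fell, and the uptake carrier Slc7a1 rose from a low level (1.52). Of 9 tested polyamine genes Sat1, which acetylates spermidine and spermine for export, rose from 43.6, 44.8 and 47.9 FPKM to 118, 129, 126 and 120.4 FPKM (log2 change 1.42, SE 0.17, limma adjusted p = 2.2e-05), Smox, which oxidises spermine, rose by 1.93, and the spermine synthase Sms fell by 1.05. Slc25a15, the mitochondrial ornithine carrier, was the 1 tested gene of the urea cycle group and fell by 1.32. Of these, Slc7a7 and Aldh4a1 rose and Sat1 and Smox fell in rUUO against UUO (log2 changes of 0.92, 1.25, -1.22 and -1.37, limma adjusted p from 0.0017 to 0.042). Ddah2 and Ckmt1, the lowest of their groups in that comparison, had log2 changes of -0.97 and -0.82 that did not pass (limma adjusted p of 0.066 and 0.14), and neither did those of Agxt2 (0.64), Gamt (0.33), Azin2 (0.57), Slc25a15 (0.51), Aldh18a1 (-0.11) and Slc7a1 (-0.58).

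In UUO against sham, 2 of the 27 pathway genes tested in macrophages rose and 1 fell, where 4.99% of all genes passed. Of 28 tested in endothelial cells 1 fell, where 1.98% of all genes passed. Of 26 tested in stromal cells 8 rose and 3 fell, where 26.4% of all genes passed. The stromal genes named here were chosen after their values were seen. Slc7a2, an arginine and ornithine carrier, rose in stromal cells from 5.27, 7.55, 7.63 and 7.21 FPKM in sham to 46.1, 81.4, 112 and 60.3 FPKM in UUO and to 130.3, 129.5, 134 and 125 FPKM in rUUO (log2 change 3.20 and 4.06 against sham, limma adjusted p of 1.6e-07 and 6.2e-08). Beside the Oat rise in the same cells, the proline synthesis genes Aldh18a1 (2.17, limma adjusted p = 0.0011) and Pycr1 (2.05, limma adjusted p = 0.009) rose after UUO, and Prodh fell (-1.74, limma adjusted p = 0.0073). The spermidine synthase Srm rose by 2.36 (limma adjusted p = 0.0016) while Odc1, the step before it, had the values given above. Stromal markers moved in the same samples, but not all the same way. Of the 5, Col1a1 among them, 3 rose and 1 fell in UUO against sham (log2 change from -0.88 to 4.01). Their sum went from 1044 to 1844 FPKM in sham to 3820 to 6706 FPKM in UUO.

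**Figure D4:**
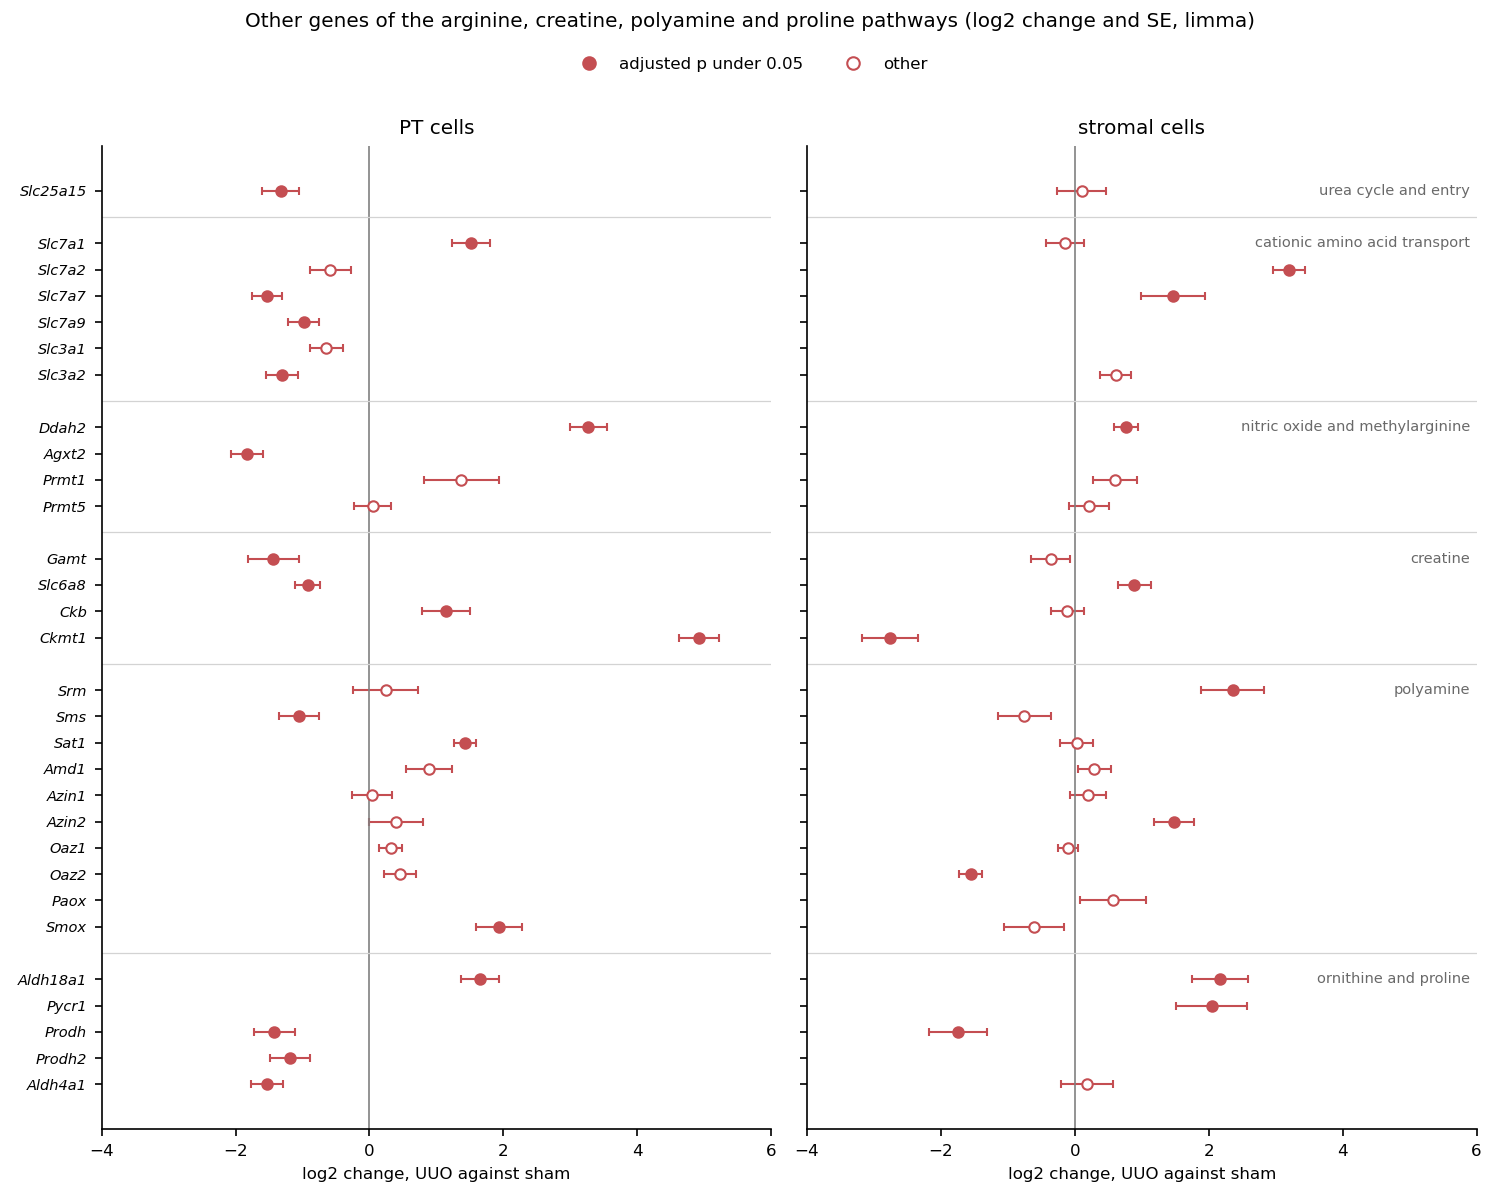
Log2 change in UUO against sham, with its standard error, of the other pathway genes tested in PT cells (left) or in stromal cells (right), grouped by pathway, where filled points have an adjusted p under 0.05 in limma. In PT cells Ckmt1 and Ddah2 lie farthest to the right and Agxt2 farthest to the left, and in stromal cells Slc7a2 lies farthest to the right.

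The genes most like each member over the 44 samples, by Pearson's r of log2(FPKM + 1) among 12601 genes, were read as a description, since all samples share their population structure and scaling. Ass1 was most like Slc5a12 (r = 0.963), Acsm1 (0.960) and Elovl2 (0.959), and Gatm most like Slc13a3 (0.938), Kmo (0.914) and Tmem8 (0.894). Asl was most like Tmem8 (0.898), Khk (0.878) and Gatm (0.860), the 1 case of a member among the nearest genes of another. Nos2 was most like Grrp1 (0.964), the endothelial nitric oxide synthase Nos3 (0.954) and Rasip1 (0.953). Oat was nearest to Aldh1a1 (0.928), H6pd (0.924) and Bmpr1a (0.920), and Ddah1 to Gpc4 (0.898), Steap2 (0.892) and Bnc2 (0.885). The nearest gene to Arg1 was Cd300lb (0.802), to Odc1 Slc25a3 (0.809) and to Arg2 Slc26a4 (0.704). For Arg2 the next genes were Trpv5 (0.697) and Insrr (0.691). Within the 10 PT samples, which hold both high sham and low UUO values, Ass1 and Gatm had r = 0.991 and Ass1 and Asl r = 0.931.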

How the data were processed

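RNA of sorted kidney cells was sequenced (Ovation RNA-Seq V2 libraries, Illumina HiSeq), and the deposited values are FPKM, which the authors made on GRCm38/mm10. Tools named in the submitters' processing notes, with no versions, are FastQC, RSEM, Bowtie2 and DESeq2. Of 46 columns 44 were used, since 2 share 1 name. No sample was dropped or imputed within a fit. Genes averaging 1 FPKM or more across a fit's samples were tested on log2(FPKM + 1) with limma 3.58.1 (R 4.3.3, empirical Bayes with an intensity trend), 1 fit per population over its 3 surgeries, 1 over sham samples and 1 over all samples for differences between populations. P-values were adjusted by Benjamini-Hochberg over all genes tested, with a threshold of 0.05. Fold changes on this scale understate the change of low genes, and FPKM moves with the share of mitochondrial RNA. Ratios used exact two-sided permutation tests. Pathway genes were named where past the threshold in PT cells in UUO against sham or rUUO against UUO, or highest or lowest of their group there. An item of the pathway list is not reported here. The members and gene lists were chosen with earlier results of these data known. Nothing in the labels ties samples to separate mice, so p-values measure the spread between samples. Alternatives were a pseudocount of 0.1, no filter, TPM, quantile normalization, rescaling without mitochondrial genes, no trend, a replicate block, 1 fit on all populations, and leaving out each sample.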

Additional observations from a re-analysis of the deposited data

Results flagged for a closer look

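In groups of 4 samples, 3 of 72 groups held a sample far from the others, where chance gives about 1 in 20. Arg1 had 2.70 FPKM in endothelial rUUO replicate 2, above the other 3. Ddah1 had 12.9 FPKM in stromal sham replicate 3, below the other 3. Nos2 had 0.43 FPKM in PT UUO replicate 4, above the other 3.

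Of 54 differences between the change in PT cells and that in another population, 19 passed the threshold (log2 differences, limma adjusted p). In UUO against sham, PT minus macrophage, these were Asl -1.68 (0.0114), Arg1 -2.37 (0.0372), Arg2 1.74 (0.0378), Gatm -2.72 (3.79e-11) and Odc1 -1.87 (2.51e-06). PT minus endothelial, they were Asl -1.86 (0.00818), Arg2 2.01 (0.0242), Gatm -1.25 (0.000294) and Odc1 -2.75 (1.97e-09). PT minus stromal, they were Ass1 -2.56 (3.12e-06), Arg2 3.09 (7.86e-05), Gatm -0.84 (0.00507), Oat -0.86 (0.0181), Ddah1 -1.88 (0.0383) and Odc1 -1.43 (6.8e-05). In rUUO against UUO they were Gatm 1.43 against macrophages (0.00155), Gatm 0.86 (0.0492) and Odc1 1.69 (0.00124) against endothelial cells, and Ass1 1.87 against stromal cells (0.00292). Arg2 reached the level tested only through the PT UUO samples, so its calls, which the 19 include, are given as a description. Arg1 was at most 1.13 FPKM in any PT sample, so its difference, also among the 19, mostly repeats the macrophage change.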

How the results depend on the processing

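The 78 calls of single members pool changes between surgeries, differences between populations in sham and differences between the change in PT cells and in another population. Of these 78, 56 kept the call under every alternative run. Over their 2168 alternative values 2001 kept the call, 167 lost it and 0 reversed. The share that kept every call was lower among the changes between surgeries than among the sham differences. The 78 include calls of Arg1, Arg2 and Nos2 that were tested through 1 group. Calls lost on leaving out 1 sample are given beside their results. The number of members called moved by over 1.5 times, or to or from 0, in the cases that follow, and the cause was not tested. Without the filter it was 1 in PT rUUO against sham, 1 in macrophage UUO against sham and 1 in stromal rUUO against UUO. With quantile normalization it was 1 in endothelial rUUO against UUO, 1 in stromal rUUO against UUO and 0 in stromal rUUO against sham, the last also 0 after rescaling without mitochondrial genes. Without the intensity trend it was 1 in PT rUUO against sham and 1 in macrophage UUO against sham. In 1 fit on all populations it was 2 in PT rUUO against UUO, 3 in endothelial rUUO against UUO, 1 in endothelial rUUO against sham and 1 in stromal rUUO against UUO.

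With the replicate number as a block it was 1 in PT rUUO against sham, 1 in macrophage UUO against sham, 1 in macrophage rUUO against sham, 1 in endothelial UUO against sham, 0 in stromal rUUO against UUO and 0 in stromal rUUO against sham. Same-numbered samples of different populations had correlated deviations of -0.0750 to 0.167 in sham (median 0.0167), and the labels tie no number to a mouse, so the numbers are not taken to pair the samples.

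Leaving out 1 sample gave 5 to 6 members in PT UUO against sham, 2 to 4 in PT rUUO against UUO, 1 to 3 in PT rUUO against sham, 1 to 2 in macrophage UUO against sham, 2 to 3 in endothelial UUO against sham, 2 to 3 in stromal UUO against sham and 1 to 2 in stromal rUUO against UUO. Over the 6 sham pairs it gave 31 to 36, and over the differences between populations 10 to 15 in UUO against sham and 3 to 4 in rUUO against UUO. Without counts, the precision of members near or under 1 FPKM (Arg1, Arg2 and Nos2 in most groups) could not be set.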
